A study of Mus musculus with 22 samples.

Results

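The complement genes described here are C1qa, C1qb, C1qc, Cfp, C3ar1 and C5ar1 of the mouse, 6 of 18193 genes named by a single-gene probe set on the arrays. The genes were chosen with earlier results of these data known. Probe sets were taken by symbol, as every one that the probe tables of the chips MOE430A and MOE430B give to 1 of these genes alone. These are 12 probe sets, of which chip A carries 9 and chip B carries 3. RNA of sorted bone marrow cells had been hybridized as 11 samples, each to 1 chip A and 1 chip B. The OGCsort set held 3 samples of CD45+ Sca1+ cells (+/+, numbered 1, 5 and 6), 3 of CD45+ Sca1- cells (+/-, numbered 1, 7 and 9) and 3 of CD45- Sca1- cells (-/-, numbered 4, 5 and 8), at a stated purity of 90%. The CPGSE set held 2 further +/+ samples, numbered 4 and 6, of a stated purity of 95-98%, whose source is given as haematopoietic stem cells of bone marrow. CD45 is a phosphatase of white blood cells, and Sca1 is a surface antigen of blood stem cells and of some mature lymphoid and myeloid cells. The labels give no strain, age, sex, treatment or number of animals. Nothing in them states that the samples within a group are from different animals, and a p-value therefore reflects sample-to-sample spread alone, which may be technical.

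Complement is a cascade of blood proteins that tags particles for uptake, attracts phagocytes and can pierce membranes. C1qa, C1qb and C1qc encode the chains of C1q, the recognition molecule that starts the classical pathway. Most complement proteins of the plasma come from the liver, whereas C1q is made largely by macrophages and dendritic cells. Cfp encodes properdin, which stabilizes the convertase of the alternative pathway and is released by neutrophils and monocytes. C3ar1 and C5ar1 encode G protein-coupled receptors for the anaphylatoxins C3a and C5a and are known from myeloid cells.

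Promoters of C1qb, C1qc and Cfp are shown because these genes differed between sorted groups and the C1q genes lie in 1 cluster. C1qb, C1qc and C1qa follow each other on chromosome 4 with no other gene between them in the RefSeq table of GRCm38.p6. Each window runs from 250 bases before to 50 bases after the RefSeq start site and is printed 5′ to 3′ along the gene's strand. Capitals mark GAGGAA, the core bound by the myeloid factor PU.1, on either strand (TTCCTC where it lies on the opposite strand), and TGCTGA, a Maf half-site. The sequences are RefSeq's, build GRCm38.p6, minus strand, at chr4:136886151-136886450 for C1qb, chr4:136892865-136893164 for C1qc and chrX:20931506-20931805 for Cfp.
C1qb: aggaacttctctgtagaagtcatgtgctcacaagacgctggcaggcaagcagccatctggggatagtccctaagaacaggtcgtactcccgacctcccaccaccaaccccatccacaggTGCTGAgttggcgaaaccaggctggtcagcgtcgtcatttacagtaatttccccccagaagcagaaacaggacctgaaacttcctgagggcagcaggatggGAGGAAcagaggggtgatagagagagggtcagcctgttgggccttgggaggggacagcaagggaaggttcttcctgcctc
C1qc: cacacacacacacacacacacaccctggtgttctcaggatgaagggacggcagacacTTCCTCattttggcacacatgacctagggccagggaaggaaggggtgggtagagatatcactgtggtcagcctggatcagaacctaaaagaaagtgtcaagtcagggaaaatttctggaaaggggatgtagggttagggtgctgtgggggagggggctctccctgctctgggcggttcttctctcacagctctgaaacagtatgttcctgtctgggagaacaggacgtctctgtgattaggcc
Cfp: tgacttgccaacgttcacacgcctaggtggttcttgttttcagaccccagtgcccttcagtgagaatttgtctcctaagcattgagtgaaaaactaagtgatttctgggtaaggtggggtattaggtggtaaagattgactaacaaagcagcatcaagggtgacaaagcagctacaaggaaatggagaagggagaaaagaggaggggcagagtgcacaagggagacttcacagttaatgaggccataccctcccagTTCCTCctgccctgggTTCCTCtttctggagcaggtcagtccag

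C1qb held 1 PU.1 core and 1 Maf half-site, C1qc held 1 PU.1 core and Cfp held 2, both downstream of the start site. The windows of C3ar1 and C5ar1 held no PU.1 core and 1 Maf half-site each. For C1qa the table had no entry, so 5 of 6 genes were searched. The PU.1 core was present in 28.28% of 32851 promoters of 300 bases and the Maf half-site in 19.48%, with both strands read and no overlap between the motifs in the windows printed. A match is a description of letters and not a binding site.

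Values below are MAS5 signals, which are linear brightness per probe set, rescaled so that the trimmed mean of each array is 500. A log2 fold change is the difference between group means of log2(signal + 32), which understates the change of dim probe sets, and a signal of 100 is the filter on dim probe sets. All 12 probe sets exceeded 100 on at least 2 arrays and were tested, with limma and Benjamini-Hochberg adjustment over 40528 probe sets and a threshold of 0.05. Levels of different probe sets cannot be set against each other. Ptprc, which encodes CD45, averaged 10625 ± 1656 in OGCsort +/+, 8051 ± 668 in +/-, 533 ± 552 in -/- (SD, n = 3 each) and 13342 ± 1834 in CPGSE +/+ (SD, n = 2), in the order the sort labels give. The share of probe sets over 100 was 63.9% to 71.0% for chip A arrays and 72.7% to 80.4% for chip B arrays. The wash runs of the arrays, read from gaps between recorded hybridization times, did not mix the groups evenly. On chip A the -/- samples shared a run with +/+ samples 1 and 5, and the +/- samples shared another with +/+ sample 6. CPGSE lay in a run of its own on both chips, so run and set cannot be told apart in comparisons with it.

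**Figure D1:**
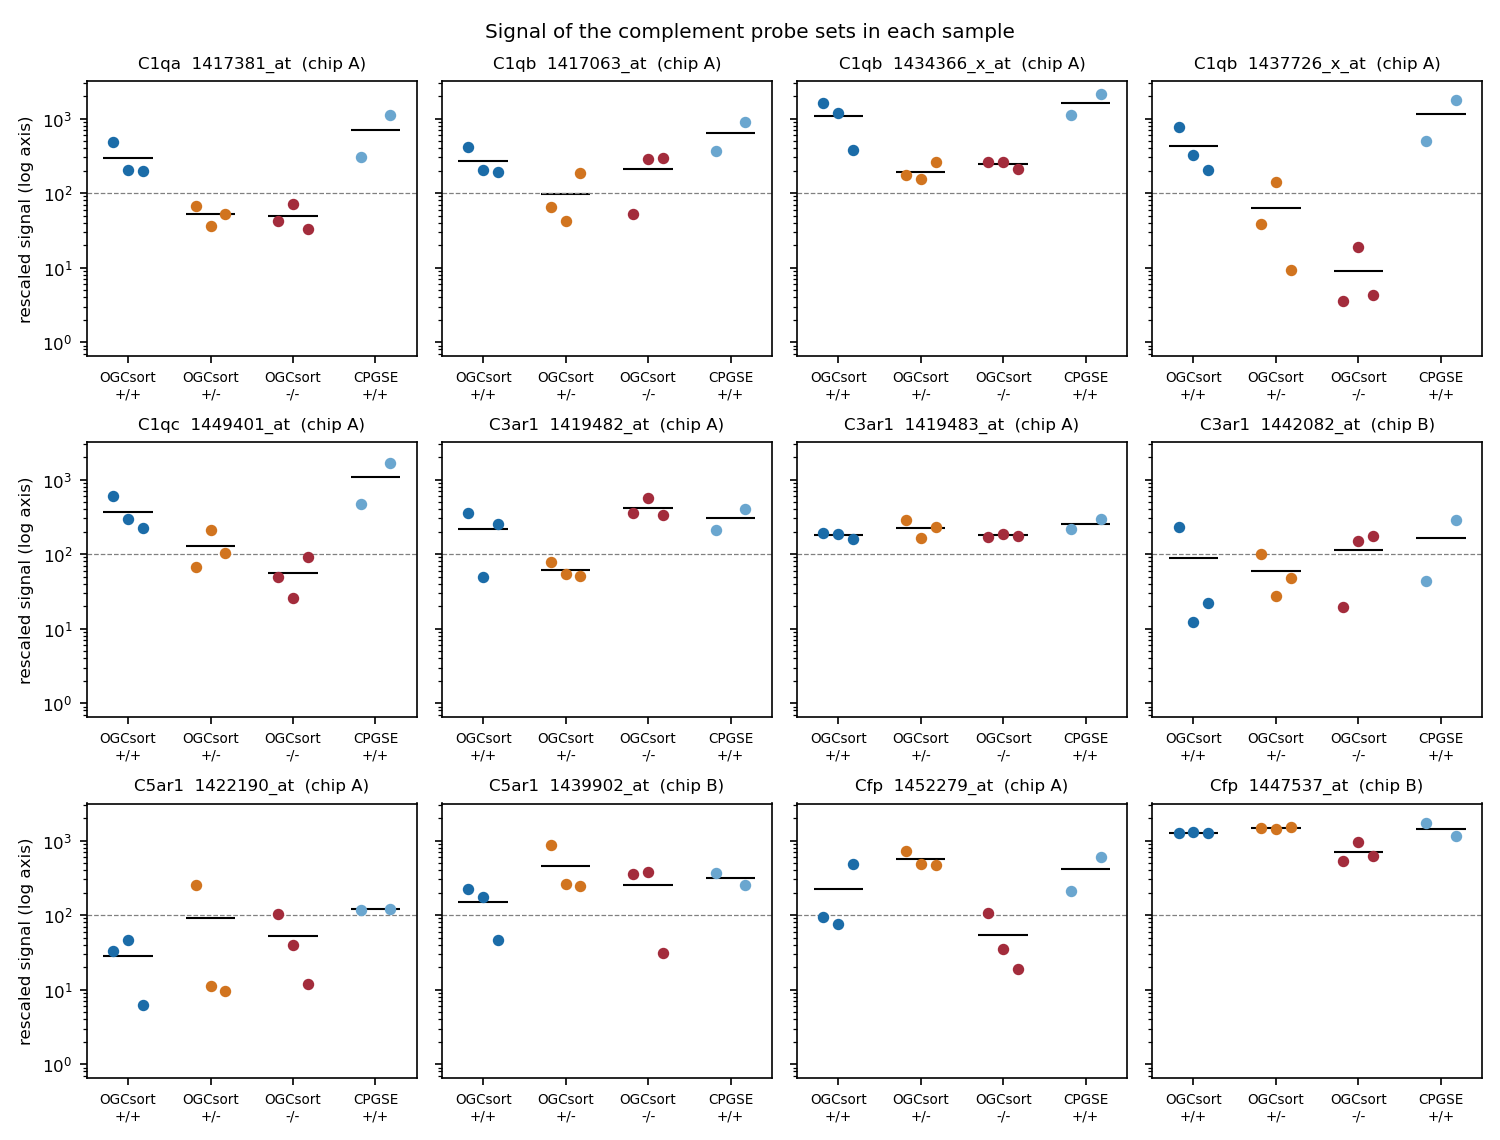
Rescaled signal (log axis) of each of the 12 probe sets in the 11 samples, with 1 point per sample, the group mean as a black line and the filter value of 100 as a dashed line. C1qa, C1qc and 2 of the 3 C1qb probe sets were higher in every OGCsort +/+ sample than in every -/- sample, and the mean of each Cfp probe set was highest in the +/- group.

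Within OGCsort, the mean signal of each C1q probe set was highest in the samples of CD45+ Sca1+ cells. Between OGCsort +/+ and -/- samples, 4 of 12 complement probe sets were called, all 4 higher in +/+ and all 4 of C1q, where 16.7% of all probe sets were called, 9.66% higher and 7.08% lower. The samples of the groups did not overlap for 5 of the 12, all 5 higher in +/+, where 16.5% of all were separated upwards and 18.4% downwards. The median log2 fold change of the 12 was 0.68, and that of all probe sets tested was -0.11. In bulk RNA, fewer cells of a type and less RNA per cell cannot be told apart.

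C1qa, the A chain, had a signal of 488, 205 and 196 in OGCsort +/+ samples 1, 5 and 6, against 42.7, 70.8 and 33.2 in -/- samples 4, 5 and 8. Every +/+ sample was above 100 and every -/- sample below it, so the groups did not overlap. The log2 fold change was 1.94 ± 0.49 (SE) with a limma adjusted p of 0.0135, at least 2.30-fold when the -/- level is set to 100. The +/- samples had 67.2, 36.0 and 52.6 and the CPGSE +/+ samples 305 and 1105. The group means thus run from CPGSE +/+ through OGCsort +/+ to +/- and -/-. Of the neighbours in that order, OGCsort +/+ and CPGSE +/+ differed with an adjusted p of 0.855, +/+ and +/- with 0.246, and +/- and -/- with 0.958, none past the threshold.

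C1qc, the C chain, had 600, 293 and 221 in the +/+ samples, against 49.8, 25.8 and 91.6 in the -/- samples. Again sample 1 of +/+ was the highest and the groups did not overlap. The log2 fold change was 2.16 ± 0.51 with an adjusted p of 0.0099, at least 2.83-fold. The +/- samples had 67.4, 209 and 104, so 2 of the 3 were above 100 and sample 7 was just under the lowest +/+ sample. CPGSE samples 4 and 6 had 475 and 1665.

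C1qb, the B chain, has 3 probe sets, and they did not act alike. On 1437726_x_at the +/+ samples had 763, 321 and 201, against 3.57, 18.9 and 4.29 in the -/- samples, which is a log2 fold change of 3.32 ± 0.62 with an adjusted p of 0.0019, at least 3.05-fold. On 1434366_x_at they had 1627, 1187 and 380, against 264, 259 and 208, a log2 fold change of 1.78 ± 0.45 with an adjusted p of 0.0141. Neither pair of groups overlapped. On 1417063_at the +/+ samples had 418, 204 and 190, against 52.4, 286 and 297 in the -/- samples, so that -/- samples 5 and 8 lay above 2 of the 3 +/+ samples. Its log2 fold change was 0.47 ± 0.59 with an adjusted p of 0.649, and the 95% interval ran from -0.80 to 1.74. The ending _x_at marks probe sets with probes that may also bind other transcripts, and whether that sets these probe sets apart was not tested.

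The size of the C1q difference leaned on +/+ sample 1. Without it, 1 of 12 probe sets was called, C1qb 1437726_x_at, where 13% of all were called. The log2 fold change was then 1.55 for C1qa with an adjusted p of 0.0688, 1.78 for C1qc with 0.0544, and 1.37 for C1qb 1434366_x_at with 0.0788. Without +/+ sample 5, C1qb 1434366_x_at had 1.59 with an adjusted p of 0.0727. The Gapdh 3′ to 5′ signal ratio on chip A, which is higher where RNA is less intact, was 24.8, 16.8 and 9.14 in +/+ samples 1, 5 and 6, against 11.8, 8.17 and 9.85 in -/- samples 4, 5 and 8. Among the +/+ samples it ran in the same order as the C1q signals. It was 19.6, 13.8 and 14.2 in +/- samples 1, 7 and 9, whose C1q signals were lower than those of +/+ sample 6, and 14.4 and 15.0 in CPGSE samples 4 and 6, whose C1q signals differed widely. Its part in the result was not tested. Within the chip A wash run shared by +/+ samples 1 and 5 and the -/- samples, the 4 C1q probe sets were called, where 12.4% of all were. Their log2 fold changes were 2.14 for C1qa, 2.44 for C1qc, and 2.37 and 3.71 for C1qb 1434366_x_at and 1437726_x_at. The 12.4% and the adjustment also covered chip B. The run used there held all +/+ and -/- samples of OGCsort and +/- samples 7 and 9. Without +/+ sample 1, +/- sample 1 and -/- sample 4 together, the samples with the highest summed neutrophil signal of their OGCsort groups, 2 of 12 probe sets were called, where 16.1% of all were, C1qb 1437726_x_at at 2.74 and C3ar1 1442082_at at -1.98.

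**Figure D2:**
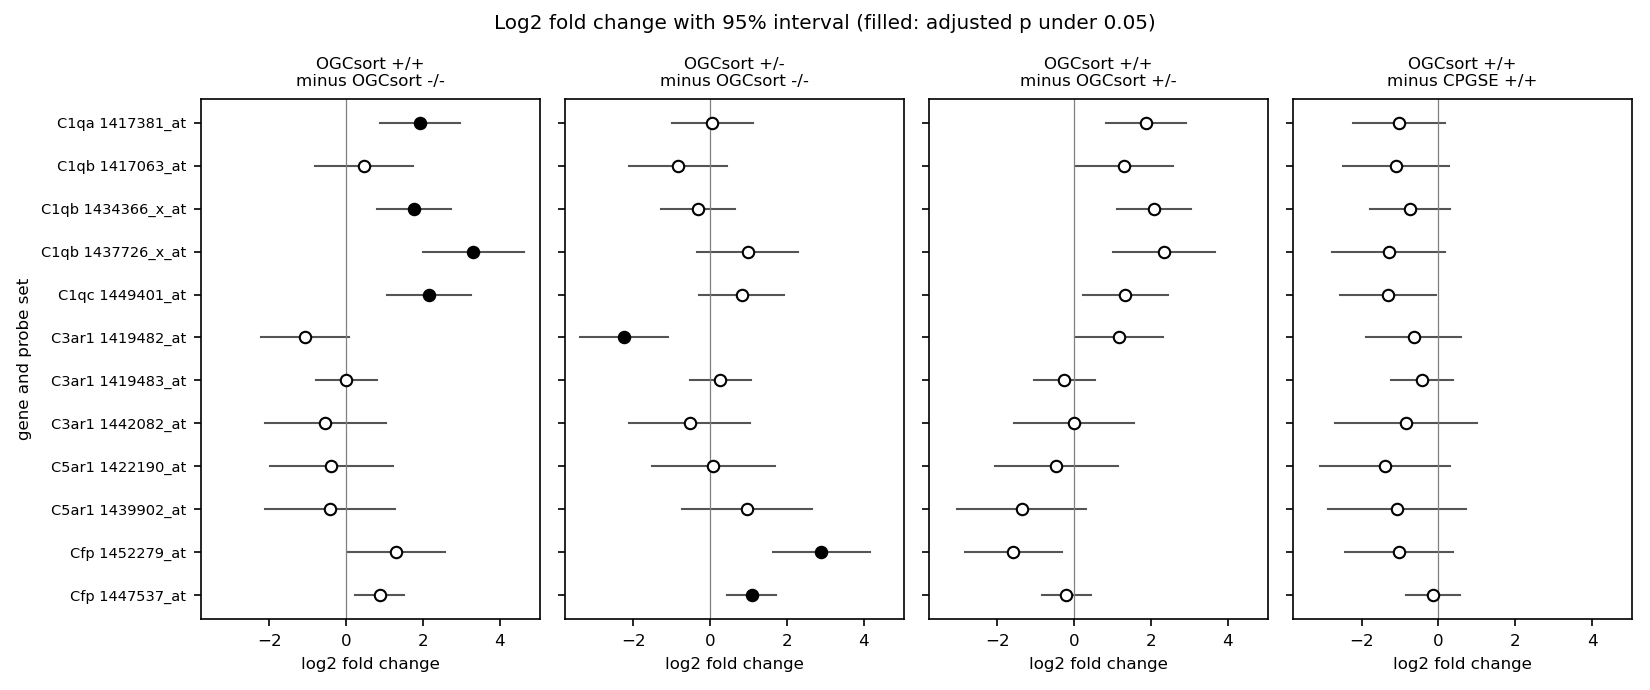
Log2 fold change (x axis, group named first minus group named second) with its 95% interval for the 12 probe sets in the 4 comparisons, with filled points for an adjusted p under 0.05. The 4 filled points of the first panel are C1q probe sets, and those of the second panel are both Cfp probe sets and 1 C3ar1 probe set.

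Against OGCsort +/-, the C1q probe sets of OGCsort +/+ were also all on the high side, but none was called. The log2 fold change was 1.87 ± 0.49 for C1qa (at least 2.30-fold), 1.33 ± 0.51 for C1qc, and 1.31 ± 0.59, 2.08 ± 0.45 and 2.34 ± 0.62 for C1qb 1417063_at, 1434366_x_at and 1437726_x_at. Every +/+ sample was above every +/- sample in each of these 5 probe sets, and below every +/- sample in 2 others, Cfp 1447537_at and C5ar1 1439902_at. Of all probe sets, 6.47% were separated upwards in this way and 6.84% downwards. In this comparison limma called 0 of 12 complement probe sets, where it called 0.101% of all probe sets, 0.0691% higher and 0.0321% lower. At an unadjusted p under 0.05 there were 7 of the 12, 6 higher and 1 lower in +/+, against 2686 of 40528. The 6 include the 5 C1q probe sets, which belong to neighbouring genes. Since the genes were chosen with earlier results of these data known, such counts are no test of the set. The smallest adjusted p was 0.115, for C1qb 1434366_x_at. That probe set was called at a log2 fold change of 2.19 with array weights (adjusted p 0.0281), at 2.24 with the sort number as a random block (0.0392) and at 2.68 without +/+ sample 6 (0.0437). Within the wash run that +/+ sample 6 shared with the +/- samples, the 5 values were 0.77 to 1.55. This sets 1 +/+ sample against 3, with the lone sample assumed to vary like the others.

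When CPGSE stood for the +/+ cells, 6 of 12 probe sets were called against -/-, where 17.1% of all were, and 3 against +/-, where 0.316% were. The 3 were C1qa with a log2 fold change of 2.90 (adjusted p 0.0426), C1qb 1434366_x_at with 2.83 (0.0226) and C1qb 1437726_x_at with 3.63 (0.0392). Between the +/+ sets themselves, limma called 0 of 12 complement probe sets and 0% of all, or 1 of 12 and 2429 of 40528 at an unadjusted p under 0.05. Array weights called 115 of all probe sets and 0 of the 12. All 12 were on the low side in OGCsort +/+, with a median log2 fold change of -1.03, against 0.05 over all probe sets. Single samples moved these differences: for C1qa the value was -0.15 without CPGSE sample 6 and -1.90 without CPGSE sample 4.

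CPGSE sample 6 had the highest signal of all 11 samples on all 5 C1q probe sets. For the summed signal of C1qa, C1qb and C1qc, 1 probe set stood for each gene, 1417063_at for C1qb. The sum was 1506, 702 and 607 in OGCsort +/+, 200 to 341 in +/-, 145 to 421 in -/-, and 1151 and 3678 in CPGSE samples 4 and 6. In -/- samples 5 and 8, 1417063_at gave 286 and 297 of C1q sums of 383 and 421. The summed signal of 12 resident macrophage markers was 4139 to 4959 in OGCsort +/+, 2668 to 5752 in +/-, 3664 to 5136 in -/-, and 5501 and 14479 in CPGSE samples 4 and 6. CPGSE sample 6 therefore stood highest in both sums, whereas the OGCsort groups overlapped in the macrophage sum and not, for +/+, in the C1q sum. The macrophage overlap of +/+ and -/- leaned on 1 marker, Slc40a1. It gave 1924, 2705 and 3288 of sums of 3664, 5136 and 5059 in -/- samples 4, 5 and 8. In +/+ samples 1, 5 and 6 it gave 1109, 519 and 296 of 4959, 4139 and 4355. Among these markers, Vcam1, an adhesion molecule of marrow macrophages and endothelium, had 937, 751 and 241 in OGCsort +/+, 373, 397 and 20.3 in +/-, 7.68, 10.5 and 55.9 in -/-, and 545 and 3405 in CPGSE samples 4 and 6. Of the 12 markers, 2 rose in +/+ against -/- (Cd68 by 2.70 and Vcam1 by 3.48 on the log2 scale), 1 fell (Slc40a1, the iron exporter, at -2.14) and 9 were not called. Over all genes, 10.8% rose and 8.61% fell in that comparison. In +/- against -/-, where no C1q probe set was called, 3 of the 12 rose (Cd68 by 1.76, Adgre1 by 1.30 and Hmox1 by 2.03) and 0 fell. Of all genes, 9.36% rose and 7.17% fell there. Vcam1 and Hmox1 were under 100 in every -/- sample, so the sizes of their rises are uncertain. Siglec1, a defining sialoadhesin of marrow macrophages, was at 125, 98.9 and 57.3 in OGCsort +/+, 281, 93.5 and 144 in +/-, 66.3, 186 and 12.8 in -/- and 47.7 and 17.4 in CPGSE +/+, and was not called in any comparison. Mertk exceeded 100 in 3 of 11 samples.

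The other myeloid lists moved differently. Of 7 monocyte markers measured, 5 rose in +/+ and 6 rose in +/- against -/-, where 10.8% and 9.36% of all genes rose. Their summed signal was 27847 to 33442 in +/+, 22032 to 33612 in +/- and 1386 to 4264 in -/-. The monocyte sum of +/- cells therefore overlapped that of +/+ cells, while their C1q sums did not overlap. Single monocyte markers went both ways. Irf8 had 5342, 9852 and 11334 in +/+, against 1788, 3055 and 3232 in +/-. F13a1 had 893, 485 and 425 in +/+, against 3986, 3512 and 2240 in +/-. In +/+ against +/-, 0 of the 7 rose and 1 fell, where 0.0822% of all genes rose and 0.0411% fell. Of 7 dendritic markers, 3 rose in +/+ against -/- and 2 rose in +/+ against +/-, with summed signals of 6906 to 16973 in +/+, 1957 to 3087 in +/- and 1712 to 2574 in -/-; 1 of the 7, Itgax, is also a complement receptor gene. Against -/-, the +/+ samples also had rises in 3 of 4 B lymphoid, 4 of 4 T and NK and 1 of 4 mast, basophil and eosinophil markers. The +/- samples had rises in 3, 2 and 2 of these lists of 4. The B lymphoid sum was 13790 to 18475 in +/+ and 11111 to 29444 in +/-. In +/+ against -/-, neither of the 2 megakaryocyte markers was called, and 1 of 4 endothelial and stromal markers fell. The CPGSE samples, whose source is given as stem cells, had monocyte sums of 45019 and 45763 and B lymphoid sums of 12624 to 16565, the monocyte sums lying above the OGCsort +/+ range. Which of these cells carried the C1q signal was not tested.

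**Figure D3:**
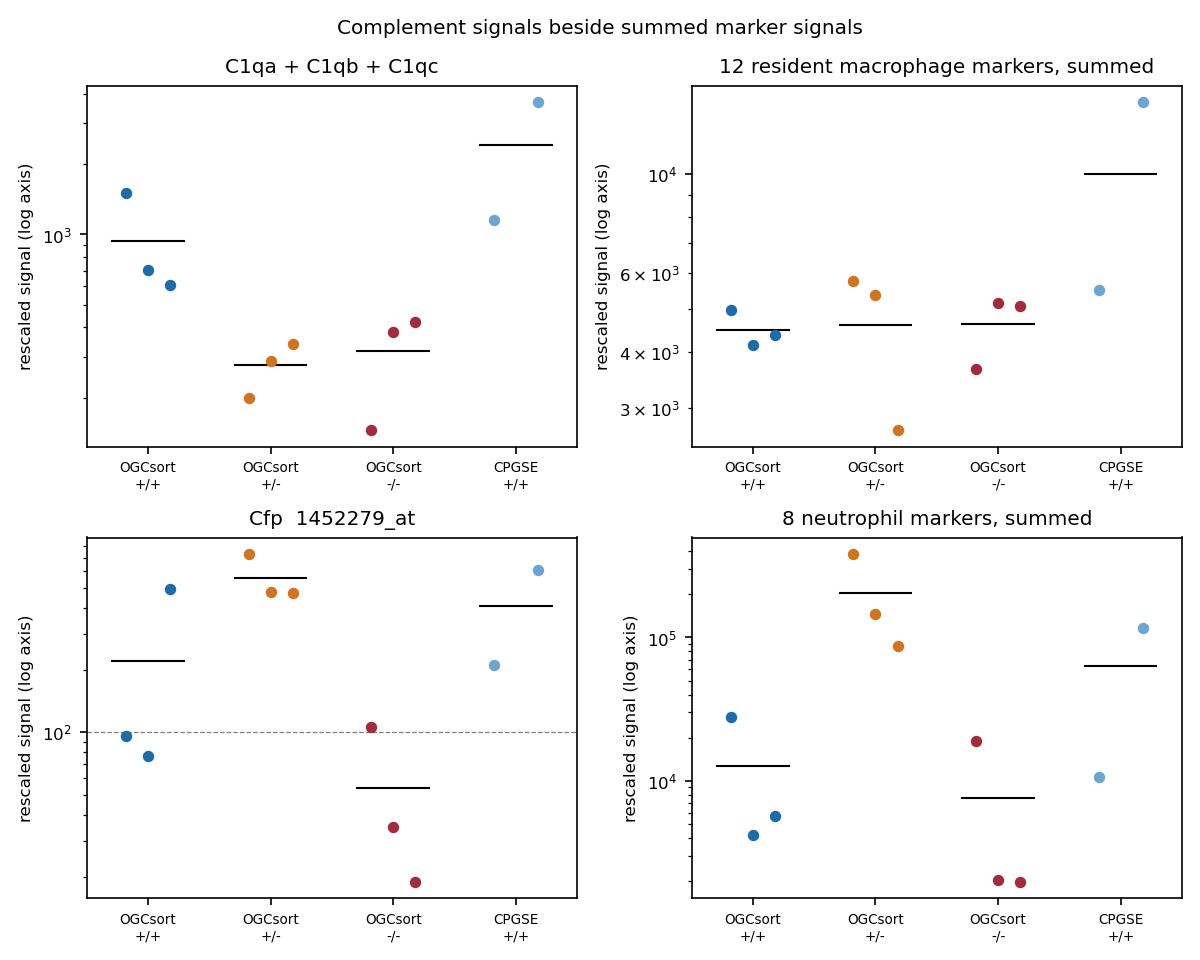
Rescaled signal (log axis) in each sample of the summed C1q chains (1 probe set per gene, 1417063_at for C1qb), the summed resident macrophage markers, Cfp 1452279_at and the summed neutrophil markers, with 1 point per sample and the group mean as a black line. The C1q sum of the OGCsort +/+ samples, 607 to 1506, lies above that of the +/- and -/- samples, and CPGSE sample 6 is highest in both upper panels; Cfp and the neutrophil sum are both high in the +/- samples.

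The properdin gene had its highest group mean in the CD45+ Sca1- samples on both chips. On chip B the CPGSE +/+ mean, 1429, was close to the +/- mean, 1471. Cfp was not called between OGCsort +/+ and +/- on either chip. Between OGCsort +/- and -/-, 3 of 12 probe sets were called, 2 higher and 1 lower, where 13.7% of all were called, 7.85% higher and 5.85% lower. Both probe sets of Cfp rose and 1 of the 3 of C3ar1 fell. The same 3 were the ones whose groups did not overlap, where 14.4% of all were separated upwards and 15.2% downwards. The median log2 fold change of the 12 was 0.18, against -0.05 over all probe sets.

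Cfp 1452279_at had 729, 479 and 471 in +/- samples 1, 7 and 9, against 107, 35.1 and 18.9 in -/- samples 4, 5 and 8. All +/- samples were above 400 and all -/- samples near or under 100. The log2 fold change was 2.90 ± 0.59 with an adjusted p of 0.0042. The Gapdh 3′ to 5′ ratio was also higher in +/-, at 13.8 to 19.6, against 8.17 to 11.8 in -/-, and its part in the result was not tested. Cfp 1447537_at, on chip B, had 1471, 1435 and 1507 in the +/- samples, against 530, 944 and 617 in the -/- samples, again with no overlap. Its log2 fold change was 1.09 ± 0.30 with an adjusted p of 0.0244, and the call was lost without any 1 of +/- samples 1, 7 and 9 or -/- samples 4 and 8 (adjusted p 0.0541 to 0.0725), and with eBayes without a trend (0.0821).

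In OGCsort +/+ the chip A probe set of Cfp split the samples, with 95.6 and 76.7 in samples 1 and 5 and 491 in sample 6. Sample 6 shared the wash run of the +/- samples, and samples 1 and 5 that of the -/- samples. On chip B, where these samples shared 1 run, the same +/+ samples had 1254, 1293 and 1276 and did not split. A batch term was the wash run on chip A and the run with the fluidics station on chip B. With it, the +/- against -/- difference of Cfp 1452279_at, of chip A, was 0.75 with an adjusted p of 0.793, and that of Cfp 1447537_at, of chip B, was 1.05 with 0.511. In this fit 0 of 12 complement probe sets were called, where 1.26% of all were. No chip A run held both +/- and -/- samples, and on chip B all -/- arrays were on station 1 and all +/- arrays on station 2, so the term rests on the 3 +/+ samples. Within the chip B run that held both groups, where station and group cannot be told apart, Cfp 1447537_at had 1.09 with an adjusted p of 0.0859.

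Cfp signals of CPGSE samples 4 and 6 were 213 and 607 on chip A and 1716 and 1143 on chip B. With CPGSE in place of OGCsort +/+, limma called both Cfp probe sets against -/-, where 17.1% of all were called. The log2 fold change was then 2.34 on chip A (adjusted p 0.0236) and 1.02 on chip B (0.0451). Between OGCsort +/+ and -/-, the log2 fold change was 1.31 ± 0.59 with an adjusted p of 0.152 on chip A and 0.88 ± 0.30 with 0.0571 on chip B, where the groups did not overlap. The chip B value passed the threshold in 7 of its 22 alternatives, with adjusted p-values between 0.0252 and 0.281. Between OGCsort +/+ and +/- it was -1.58 ± 0.59 (0.576) and -0.20 ± 0.30 (0.983). Of 8 neutrophil markers, 6 rose in +/- against -/- and 0 fell, where 9.36% and 7.17% of all genes did. Of 7 monocyte markers, 6 also rose there and 0 fell. The summed neutrophil signal was 87821 to 382670 in +/-, 4209 to 27920 in +/+ and 1976 to 18918 in -/-. Across the +/- samples Cfp 1447537_at ran only from 1435 to 1507. Of the 8 neutrophil markers, Camp was at 48.2 and 77.3 in -/- samples 5 and 8, under the filter. In CPGSE samples 4 and 6 the neutrophil sum was 10695 and 116112. Cfp 1452279_at was higher in sample 6, but Cfp 1447537_at was higher in sample 4. The +/+ split of Cfp 1452279_at did not follow that sum, since the neutrophil sum was highest in sample 1, at 27920, and 5722 in sample 6.

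C3ar1 was called on 1 of its 3 probe sets, in +/- against -/-. On 1419482_at the +/- samples had 79.2, 54.4 and 51.0, against 350, 568 and 331 in the -/- samples, with no overlap. The log2 fold change was -2.23 ± 0.53 with an adjusted p of 0.0118, at least 3.31-fold lower in +/-. Without -/- sample 5 it was -2.01 with 0.0587, and with the chip A wash run as a term -2.92 with 0.209. On 1419483_at every sample of the 4 groups lay between 161 and 294, and the difference was 0.27 ± 0.37 with an adjusted p of 0.707. On 1442082_at, of chip B, 4 of 11 samples exceeded 100 and the difference was -0.53 ± 0.74 with 0.708. The 95% intervals of 1419483_at and 1442082_at ran from -0.52 to 1.06 and from -2.10 to 1.03, so neither gives a direction. A fall of this receptor gene therefore rests on 1 probe set. In OGCsort +/+ samples 1, 5 and 6, 1419482_at had 350, 49.9 and 253, which spans the range between the +/- and -/- groups.

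C5ar1 was dim on 1 of its 2 probe sets, with 4 of 11 samples over 100 on 1422190_at and 9 of 11 on 1439902_at. On 1422190_at the OGCsort +/+ samples had 32.7, 46.4 and 6.31, the +/- samples 253, 11.2 and 9.55, the -/- samples 105, 39.1 and 11.8, and the CPGSE samples 119 and 120. On 1439902_at the highest value was again that of +/- sample 1, at 863, against 259 and 245 in the other +/- samples, and -/- samples had 355, 374 and 30.7. That sample also had the highest summed neutrophil signal, 382670. No comparison called C5ar1. Within OGCsort, its probe sets had the widest 95% intervals of the 12, which reached, for 1439902_at between +/+ and +/-, from -3.06 to 0.32 on the log2 scale.

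Of 46 further complement genes listed by role, 36 had a single-gene probe set and 32 passed the filter. Between OGCsort +/+ and -/-, 4 rose, 7 fell and 21 were not called, with a median log2 fold change of -0.40. Over all 17027 genes, 1 probe set each, 10.8% rose and 8.61% fell, with a median of -0.11. Between +/- and -/-, 2 rose and 4 fell, with a median of -0.32, where 9.36% and 7.17% of genes did. Between +/+ and +/- limma called 0 of the 32, where 0.0822% of genes were called higher and 0.0411% lower. At an unadjusted p under 0.05 there were 5 of the 32, against 1223 of 17027 genes. Between the +/+ sets limma called 0 of the 32, where 0% of genes were called. There 0 of the 32 had an unadjusted p under 0.05, against 1010 of 17027 genes.

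Of 7 receptor genes, 3 rose and 1 fell in +/+ against -/-, and 1 rose in +/-. Itgb2, the beta chain of the complement receptors CR3 and CR4, had 4103 ± 2231 in +/+ and 6052 ± 2454 in +/-, against 406 ± 222 in -/- (SD, n = 3 each). Its log2 fold change was 3.23 in +/+ (adjusted p 0.000158) and 3.83 in +/- (5.06e-05). Itgax, the alpha chain of CR4, rose in +/+ by 1.81 with a mean of 843 ± 148, against 219 ± 45.7 in -/-. Cr2, a receptor for C3 fragments on B cells, rose in +/+ by 1.55, with 677 ± 109 against 221 ± 104. Vsig4, a receptor for C3 fragments on tissue macrophages, fell in +/+ by 1.36 (adjusted p 0.0450), with 111 ± 66.5 against 305 ± 33.3, and had 206 ± 10.1 in +/-, where it was not called. Itgam, the alpha chain of CR3, was below 100 in all +/+ samples and was not called there. It was not called in +/- against -/- either, with 146 ± 124 against 53.6 ± 41.9. The ficolin Fcnb, a lectin that starts the lectin pathway and is made by neutrophils and monocytes, rose in +/- by 1.57, with 2328 ± 1468 against 673 ± 115.

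Of 10 regulators, which limit complement on cells or in plasma, 1 rose and 3 fell in +/+ against -/-, and 2 fell in +/-. Cd59a, which blocks the final membrane pore, had 560 ± 179 in +/+ and 568 ± 150 in +/-, against 1539 ± 191 in -/-, and fell by 1.45 and 1.41 on the log2 scale (adjusted p 0.0042 and 0.00575). Cd46, a cofactor for the cleavage of C3b and C4b, had 233 ± 94.6 in +/+ and 234 ± 150 in +/-, against 917 ± 168 in -/-, and fell by 1.90 and 2.04 (0.0144 and 0.0108). Cd55, which speeds the decay of the convertases, went the other way and rose in +/+ by 1.32 (0.0222), with 627 ± 165 against 229 ± 43.0. Vtn, vitronectin, an inhibitor of pore assembly, fell in +/+ by 1.65 (0.0231), with 60.6 ± 36.9 against 246 ± 47.7. All 4 erythroid markers measured fell in +/+ and in +/- against -/-, with summed signals of 802 to 4600 in +/+ and +/-, against 160255 to 251243 in -/-, and the part of that difference in the regulator values was not tested. Terminal pathway genes, whose products build the membrane pore, had low signals. C9 had 98.8 ± 70.3 in +/+, against 450 ± 98.5 in -/-, and fell by 2.02 (0.0154). C8g had 27.7 ± 22.8, against 182 ± 48.6, and fell by 1.88 (0.0341), at least 1.59-fold, since every +/+ sample was under 100. C6 had 71.4 ± 54.0, against 288 ± 115, and fell by 1.68 (0.0413). In +/- against -/-, C6 fell by 1.89 (0.0266), at least 2.31-fold with every +/- sample under 100, and C9 fell by 1.80 (0.0326).

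**Figure D4:**
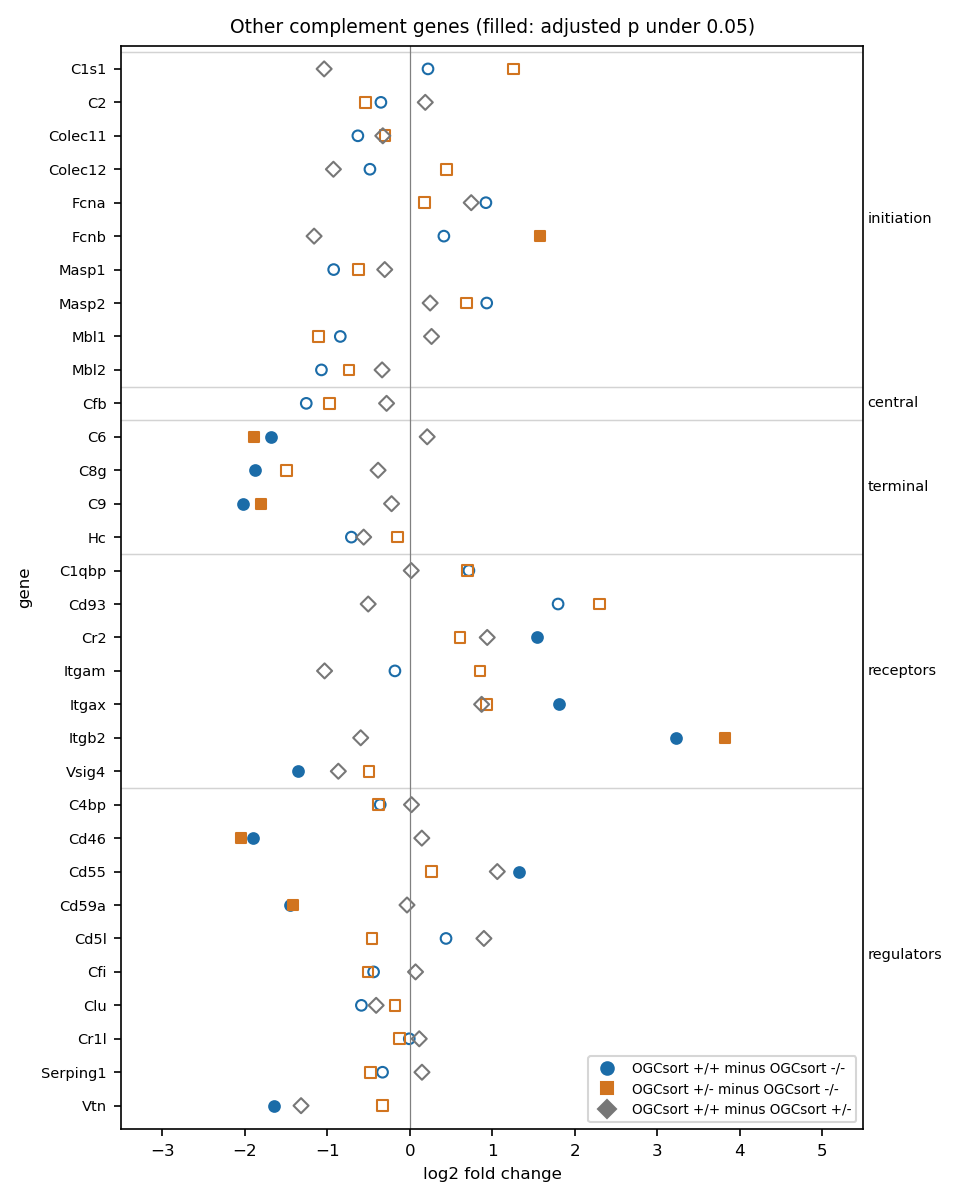
Log2 fold change (x axis, group named first minus group named second) of the 32 other complement genes in the 3 OGCsort comparisons, grouped by role, with filled symbols for an adjusted p under 0.05. Filled symbols to the right include Itgb2 in both comparisons with -/-, and those to the left include Cd46, Cd59a, C6 and C9 in both.

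The genes with the most similar profile were found by the root mean square difference of centred log2(signal + 32) values over the 11 samples, among 8539 genes that spanned at least 2 log2 units. For the mean of the C1q chains, with 1417063_at for C1qb, they were Nxt2 at 0.45, Bcl7c at 0.60, Gimap7 at 0.63 and Emp1 at 0.63, where the median gene differed by 1.46. Nxt2 had 196, 213 and 170 in OGCsort +/+, 28.0, 23.8 and 53.9 in +/-, 21.3, 24.3 and 62.8 in -/- and 171 and 326 in CPGSE +/+. Its +/- and -/- values were thus all under 100, as were most of those of Bcl7c and Emp1. Gimap7 was over 100 in every sample. The likeness to C1q therefore rests in part on dim values. For Cfp they were Elane, which encodes neutrophil elastase, at 0.60, Aldh3b1 at 0.62, Pgk1 at 0.62 and Emb at 0.63, with a median of 1.58. Elane had 175, 201 and 232 in OGCsort +/+, 616, 889 and 772 in +/-, 91.8, 70.3 and 47.3 in -/- and 275 and 506 in CPGSE +/+. The nearest profiles of C5ar1 1422190_at were Hspb3 at 0.48, Gpr17 at 0.50, Lce1c at 0.51 and Ctxn3 at 0.52, with a median of 1.23. That probe set exceeded 100 in 4 of 11 samples, and Hspb3, Lce1c and Ctxn3 were under 100 in most samples. This likeness therefore rests largely on dim values. For C3ar1 1419483_at no likeness can be given, since its own profile varied by a root mean square of only 0.25 and the candidates had to span at least 2 log2 units.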

How the data were processed

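RNA of 11 sorted bone marrow samples was measured on MOE430A and MOE430B arrays, 22 in all. The deposited values are signal intensity per probe set, made by the authors with MAS5, per the submitters' processing notes, with no version stated there. The deposited array records, per the file headers, hold chip lot, fluidics station and hybridization time, and gave the wash runs (a gap of over 1 hour starts a run) and which sort sign is CD45. Detection calls were not used here.

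Signals were multiplied, array by array, to bring the 2% trimmed mean to 500. Probe sets over 100 on 2 or more of 11 arrays were kept, the chip A value was used for 100 duplicated probe sets, and log2(signal + 32) was tested. The test was limma 3.58.1 under R 4.3.3 (lmFit, then eBayes with a trend), each chip alone, with Benjamini-Hochberg adjustment over both chips. The OGCsort comparisons used 9 samples and share samples with each other; the comparison with CPGSE used 11. A fold against a group entirely under 100 is a bound computed with 100 in its place. The number of arrays limits the precision.

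The members, gene lists and tests were chosen with earlier results of these data known. Named genes were every member probe set, up to 6 listed complement genes per direction and comparison with the smallest adjusted p, Ptprc, and the 4 nearest profiles of C1q, C3ar1, C5ar1 and Cfp; not all are printed (none for the flat C3ar1), and marker genes, Itgam and others that were not called were named after their values were seen. For 1 value per gene, chip A came first, then a plain _at name, then the highest mean. The marker lists were resident macrophage, monocyte, neutrophil, dendritic, B lymphoid, T and NK, erythroid, mast with basophil and eosinophil, megakaryocyte, and endothelial with stromal. The fits were tested on simulated data. Alternatives changed the pseudocount, filter, scaling, eBayes options, array weights, adjustment, batch and block terms and samples. The batch term was the wash run on chip A and the run with fluidics station on chip B.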

Additional observations from a re-analysis of the deposited data

How the results depend on the processing

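Of 955 recomputed values of the complement probe sets, 876 kept their sign and side of the threshold, 19 lost a call and 16 gained one; the other 44 changed sign, none past the threshold (smallest adjusted p 0.302), and the cause was not tested. With a term for wash run (chip A) or wash run and station (chip B), 3959 probe sets were called between OGCsort +/+ and -/- (4 complement ones), 512 between +/- and -/- (0) and 6 between +/+ and +/- (0). Between +/+ and -/- this term gave 0.27 for C5ar1 1439902_at and 1.10 for C3ar1 1442082_at, between +/- and -/- 1.48 for C1qb 1434366_x_at and 1.60 for C3ar1 1442082_at, and between +/+ and +/- -0.50 for C3ar1 1442082_at. Between +/+ and +/-, where the count was 41, it was 21 with a pseudocount of 16, 68 with 64, 23 with no filter, 20 without rescaling, 18 without a trend, 189 with array weights, 79 with adjustment within a chip, 131 with the sort number as a random replicate block, 75 with all 11 samples and 128 with CPGSE as the +/+ cells. Complement probe sets called there were 1 with array weights, 1 with that block and 3 with CPGSE. CPGSE in place of +/+ also turned C5ar1 1422190_at (1.01), C5ar1 1439902_at (0.67) and C3ar1 1442082_at (0.31) against -/-, and C3ar1 1419483_at (0.16) and C5ar1 1422190_at (0.92) against +/-. Array weights called 115 probe sets between the +/+ sets and turned C1qa (-0.035) and C5ar1 1422190_at (-0.11) between +/- and -/-, and C5ar1 1422190_at (0.0011) and C3ar1 1442082_at (-0.061) between +/+ and +/-. The block turned C3ar1 1419483_at (-0.028) between +/+ and -/- and C1qa (-0.10) between +/- and -/-. No rescaling turned C5ar1 1422190_at (-0.044) between +/- and -/- and C3ar1 1442082_at (-0.15) between +/+ and +/-, as did a pseudocount of 16 for the same probe set (-0.093). Leaving out +/+ sample 1, +/- sample 1 and -/- sample 4 together, chosen after seeing the data, left 2 complement calls between +/+ and -/-. It turned C1qb 1417063_at (-0.50) and C3ar1 1419483_at (-0.064) there, C1qa (-0.11) and C5ar1 1422190_at (-0.40) between +/- and -/-, and C5ar1 1422190_at (0.37) and C3ar1 1442082_at (-0.50) between +/+ and +/-. Leaving out each sample in turn gave 4667 to 7224 calls (1 to 5 complement) between +/+ and -/-, 3763 to 6223 (2 to 2) between +/- and -/-, 9 to 36 (0 to 1) between +/+ and +/- and 0 to 3 (0 to 0) between the +/+ sets. The log2 fold changes that changed sign in these fits ran, between +/+ and -/-, from -0.17 to 0.81 for C1qb 1417063_at, -0.035 to 0.076 for C3ar1 1419483_at, -0.77 to 0.053 for C5ar1 1422190_at and -1.30 to 0.11 for C5ar1 1439902_at. Between +/- and -/- they ran from -0.079 to 0.25 for C1qa and -0.83 to 0.56 for C5ar1 1422190_at, and between +/+ and +/- from -0.94 to 0.45 for C5ar1 1422190_at and -0.81 to 0.48 for C3ar1 1442082_at. Between the +/+ sets they ran from -1.08 to 0.028 for C3ar1 1419482_at, -1.89 to 0.19 for C3ar1 1442082_at and -0.42 to 0.15 for Cfp 1447537_at. No paired analysis was possible because no 2 groups share 2 sort numbers. No detection calls were used, so a signal near 100 has little weight.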
